A study of Vitis vinifera with 45 samples.

Results

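The 200 transcripts described here are those that rose with ripening in the berry skin of every graft type of the grape Crimson Seedless (Vitis vinifera). For each transcript and graft type, the mean of log2(TPM + 1) at DAF45 was subtracted from that at DAF105, where the number of a stage gives the days after flowering (DAF) and TPM is abundance scaled to transcript length and to the same total in each library. The smallest of the 5 differences was the score, and the 200 highest scores were kept among the 12346 transcripts, of 29958 listed, with a mean of at least 5 TPM over the libraries at DAF105. The 5 graft types were graft-free, own-rooted vines (CS), vines grafted onto their own variety (CS/CS), and heterografts onto the rootstocks 101-14, 110R and SO4 (CS/101-14, CS/110R and CS/SO4), which are hybrids bred from American Vitis species. Skins were collected at DAF45, DAF75 and DAF105 with 3 biological replicates each, which gave 15 groups and 45 libraries of 16387269 to 20765329 counts. All vines stood at a single site, the scion was Crimson Seedless throughout, and the methods do not say which vines a replicate came from. The deposited titles use the names Crimson for CS/CS and Crimson Seedless for CS, so only a note in the study's supplement tells which of them is self-grafted, and the rootstock of a library rests on its label. The levels at DAF45 and DAF105 chose the transcripts and are given as a description without a test, whereas the levels at DAF75 played no part in the choice and were tested.

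Grape berries ripen in a second phase of growth that opens at veraison, when the fruit softens, takes up sugar and, in red varieties, colours. The colour comes from anthocyanins, which the flavonoid pathway builds in the skin from phenylalanine by way of coumaroyl-CoA and chalcones, with leucoanthocyanidin dioxygenase (LDOX) among its last steps. Skin cells also rebuild their walls while the berry softens. The enzyme 4-coumarate:CoA ligase (4CL) acts at the entry to the pathway. The name 4CL-like (4CLL) marks a likeness to 4CL and does not by itself place a gene in the pathway.

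The deposited identifiers carry no gene names, and 0 of them were found in the 29591 entries of a RefSeq gene table. Names were therefore taken only from the 19 genes of the study's primer list, which holds 4 of the 200, and roles also from the study's list of gene ontology terms. No name was checked against another source. The 4 named transcripts are a ripening-related protein-like gene (VIT_06s0004g02560), CHI (VIT_05s0094g00350), LDOX (VIT_18s0001g03430) and 4CLL5 (VIT_16s0050g00390). The study's pathway figure expands CHI as chalcone isomerase, but the primer list gives this identifier only the letters CHI. Their primer pairs are the only sequences used here that tie a named member to its identifier. The primer list heads forward primers 3′ to 5′ and reverse primers 5′ to 3′, and without the genome their direction was not checked, so the letters stand as listed:
ripening-related protein-like, forward: ttcagagcgcatcgtagcat
ripening-related protein-like, reverse: catgctctttgtcacagccg
CHI, forward: ggagtccttttggcagcctt
CHI, reverse: caccggaagaaccaccactt
LDOX, forward: ccctctttgtccatgtcggt
LDOX, reverse: attgccttatggggaggtgc
4CLL5, forward: tccacgttcacggcttactc
4CLL5, reverse: atttggtggatcgtggggac

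Of the 12346 transcripts over the TPM minimum, 2786 had a score above 0 and 447 a score above 1. Among the 200 members the score ran from 10.19 down to 1.62 with a median of 2.39, so the median member rose at least 2.39 on the log2(TPM + 1) scale in the graft type where it rose least. A score of at least 3 was found in 62 members and one of at least 5 in 15. The last members inside the limit were VIT_13s0019g04290 (score 1.63), VIT_13s0074g00570 (1.63) and VIT_05s0051g00680 (1.62). The first transcripts outside it were VIT_19s0015g01300 (1.61), VIT_00s0415g00040 (1.60) and VIT_08s0040g00770 (1.59). The smallest rise was that in CS/CS for 79 members, in CS/SO4 for 53, in CS/101-14 for 42, in CS for 15 and in CS/110R for 11. In 177 members all 15 libraries at DAF105 lay above all 15 at DAF45. The mean level at DAF105 spanned 5.43 to 48729 TPM with a median of 50.7 TPM, against 20.9 TPM for all transcripts over the minimum. There were 23 members at 1000 TPM or more and 59 under 20 TPM, and 66 members had a mean under 1 TPM at DAF45.

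Replicate libraries correlated at 0.971 to 0.997 over all transcripts. One library, replicate 1 of CS/101-14 at DAF45, correlated best with a library of another group, replicate 1 of CS/SO4 at the same stage. Replicate 1 of CS/CS at DAF105 had the lowest median member level at that stage (4.54 log2(TPM + 1), against 5.18 and 5.37 in the other CS/CS libraries). Chosen again without the first of these libraries, 196 of the 200 members were the same, and without the second 191 were. Marker genes of skin could not be checked, since no identifier of one was named.

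Taken as a sum, the 200 transcripts went from a small to a large part of the transcript pool, and the heterografts made most of that change by DAF75. At DAF45 the members together held 1.19% to 2.27% of all TPM in each of the 15 libraries. At DAF105 they held 29.1%, 27.7% and 29.0% in the CS libraries, 20.7%, 22.4% and 23.6% in CS/CS, and 25.7% to 28.5% in the 9 heterograft libraries. At DAF75 the CS libraries had shares of 1.93%, 2.65% and 2.57%, and those of CS/CS 1.41%, 1.72% and 1.48%. At the same stage the share was 20.6%, 22.7% and 20.3% for CS/101-14, 22.5%, 18.8% and 19.9% for CS/110R, and 20.3%, 19.2% and 15.8% for CS/SO4. No heterograft library overlapped with the range of the CS and CS/CS libraries at DAF75, and the lowest of them still held 15.8%. A share of the pool does not tell more RNA per cell from more cells of a type, which cannot be told apart in whole skin. The next 200 transcripts by score held mean shares of 0.80% to 4.76% over the 15 groups. The sum leans on a few very abundant members. VIT_19s0090g01350, VIT_05s0049g00520 and VIT_08s0056g01600 had means of 48729, 37068 and 35543 TPM at DAF105, against 50.7 TPM for the median member. The median member level at DAF75 was at least 4.95 log2(TPM + 1) in each heterograft library and at most 2.26 in CS and CS/CS.

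**Figure D1:**
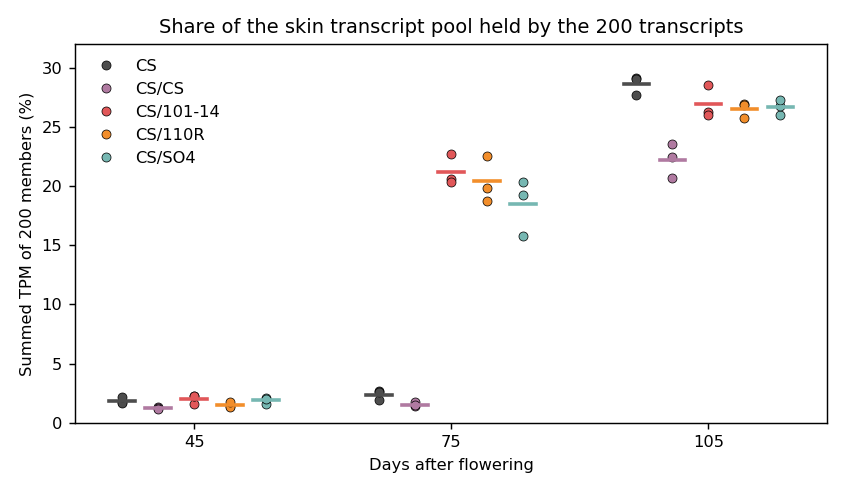
Summed TPM of the 200 members as a percentage of all TPM (y axis) at DAF45, DAF75 and DAF105 (x axis). Points are single libraries and short bars mark the means of 3 replicates per graft type. The sum leans on a few very abundant members. At DAF75 the CS and CS/CS libraries sit between 1.41% and 2.65% and the heterograft libraries between 15.8% and 22.7%.

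For each member and graft type, the difference between DAF45 and DAF75 was divided by that between DAF45 and DAF105, both on the log2(TPM + 1) scale, to give the share of the rise reached by DAF75. The median share over the 200 members was 0.921 for CS/101-14, 0.817 for CS/110R and 0.802 for CS/SO4. It was 0.10 in CS and 0.0347 in CS/CS. The median was also computed from each DAF75 library alone, with the means of 3 replicates at DAF45 and DAF105 kept. It spanned 0.905 to 0.943 in CS/101-14, 0.810 to 0.845 in CS/110R and 0.799 to 0.823 in CS/SO4. In CS/CS it spanned 0.000805 to 0.0348, and in CS 0.00983 to 0.162, where replicate 1 was the low one. These ranges leave out the spread between replicates at DAF45 and DAF105. Within that limit, no range of a heterograft met that of CS or CS/CS, and the range of CS/101-14 lay above those of the other heterografts. Since the denominator of the share holds the values that chose the members, no test was made.

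By DAF75, 149 members had made 0.5 or more of their rise in all 3 heterografts, and 11 had done so in CS and 5 in CS/CS. A single member, VIT_12s0035g01240, had passed 0.5 in all 5 graft types. Its mean went from 1.12 TPM at DAF45 to 40.6 TPM at DAF75 in CS, and from 1.40 to 10.2 TPM in CS/CS, while in the heterografts it stood at 79.7 to 98.6 TPM at DAF75 and at 38.2 to 41.7 TPM at DAF105. Between DAF45 and DAF75 the level went down in 74 members in CS/CS, in 40 in CS and in 1 in each heterograft. Levels at DAF75 above those at DAF105 were found for 68 members of CS/101-14, 65 of CS/110R and 55 of CS/SO4, of which 39 were common to the 3 heterografts, and for 1 member of CS, VIT_02s0012g02810, and 0 in CS/CS.

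**Figure D2:**
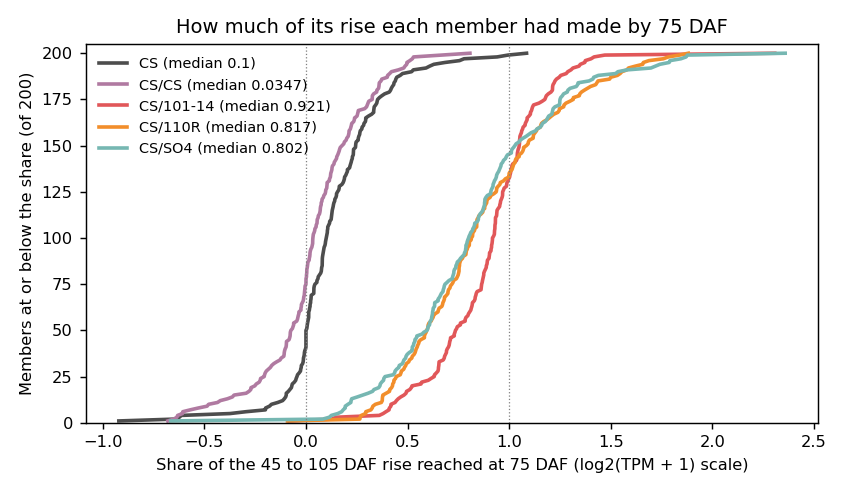
Number of members (y axis) at or below a given share of their DAF45 to DAF105 rise reached at DAF75 (x axis, log2(TPM + 1) scale), 1 line per graft type. The CS and CS/CS lines climb near 0, with medians of 0.10 and 0.0347, and most of the climb of the heterograft lines falls between 0.5 and 1, with medians of 0.802 to 0.921.

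At DAF75 the libraries of the 3 heterografts were compared with those of CS and CS/CS, 9 against 6, to ask which members were already higher. Of the 200 members 195 were tested and 190 were higher in the heterografts, at a log2 fold change above 1 and an adjusted p of 0.05 or less in edgeR's quasi-likelihood test over 19061 transcripts. Of all transcripts tested, 11.2% were called higher. No member was lower, against 17.9% of all transcripts. The median log2 fold change was 3.46 over the members, also with the 4 members at 0 counts in CS and CS/CS set at their bound (3 counts over those libraries), and -0.02 over all transcripts tested. In 171 of all 200 members, tested or not, each of the 9 heterograft libraries lay above each of the 6 others in TPM. This held for 10.9% of all transcripts tested. Members that passed the count filter only through the heterografts had to differ. The count of calls, but not that of 171, was therefore repeated, as an alternative chosen after seeing the data. It took transcripts with at least 10 counts in 3 or more of the CS and CS/CS libraries. Of the 137 members among these 132 were higher and 0 lower, against 8.71% of such transcripts higher. This fit, like that against CS/CS alone below, pools graft types on a side without a term for them. Its SE and p-values therefore mix differences between pooled graft types with the spread between replicates. With graft types as separate groups, an alternative chosen after seeing the data, 193 members were higher. The sources do not state in full the separate origin of the samples counted as replicates.

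**Figure D3:**
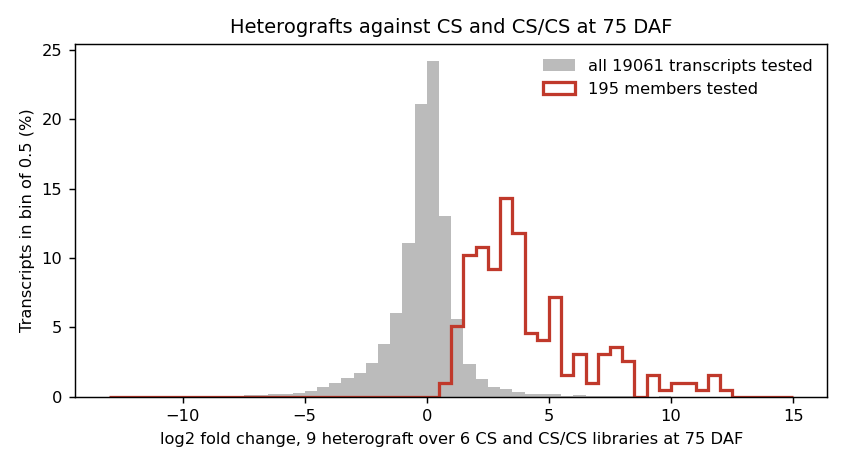
Percentage of transcripts (y axis) in bins of 0.5 of the log2 fold change of the 9 heterograft libraries over the 6 CS and CS/CS libraries at DAF75 (x axis), for all 19061 transcripts tested (filled) and the 195 members tested (line). All members lie above 0, with a median of 3.46 against -0.02.

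Each heterograft was also set against CS alone, with 3 libraries on each side. In CS/101-14, 186 members were higher (11.2% of all transcripts tested), 179 for CS/110R (9.52%) and 172 for CS/SO4 (8.43%), and no member was lower in any of them (background 16.6%, 14.6% and 14.5%). All 3 comparisons use the same CS libraries. Over the 122 members with at least 10 counts in each CS library, which did not pass through the heterografts, the counts higher were 119 for CS/101-14, 112 for CS/110R and 110 for CS/SO4, where 8.22%, 7.18% and 6.50% of such transcripts were higher. Higher levels in each of the 3 were called for 163 of the 183 members tested in all of them, and for 5.97% of all transcripts so tested. This joint count was not repeated over the 122, so it includes members that passed the filter with the help of the heterografts. Against CS/CS alone, the 9 heterograft libraries had 187 members higher (15%, or 2835 of all 18850 transcripts tested) and 0 lower (19.3%), and 106 of the 112 members with at least 10 counts in each CS/CS library were higher (11.4% of such transcripts). The highest mean at DAF75 was that of CS/101-14 for 97 members, of CS/SO4 for 57 and of CS/110R for 46, and the lowest that of CS/CS for 124 and of CS for 76.

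The ripening-related protein-like gene VIT_06s0004g02560 was among the most abundant named members. At DAF75 it measured 34.1, 222 and 112 TPM in CS and 22.5, 11.5 and 15.1 TPM in CS/CS, against 6875 to 13840.3 (median 11937) TPM in the 9 heterograft libraries. No library of a heterograft overlapped with the other 6 (log2 fold change 7.49, SE 0.77, adjusted p = 5.24e-07). Its level then stood lower at DAF105 than at DAF75 in each heterograft, with means of 5896 ± 1748, 4417 ± 508 and 5989.6 ± 313 TPM (SD, n = 3) in CS/101-14, CS/110R and CS/SO4. In CS it reached 9230.5 ± 2843 TPM and in CS/CS 9822 ± 877 TPM at DAF105. At DAF45 the CS/101-14 libraries were uneven, at 45.2, 877 and 882 TPM, with the low value in the library that resembled CS/SO4.

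CHI (VIT_05s0094g00350) bears letters that the study's pathway figure expands as chalcone isomerase, the enzyme that closes chalcones to flavanones. The study's term list instead places the same identifier under cell wall organization or biogenesis, together with its neighbours VIT_05s0094g00330 and VIT_05s0094g00340. The name was not checked here, so whether this locus is a chalcone isomerase stays unknown. At DAF75 CHI measured 689, 1321 and 1359 TPM in CS, 26.7, 7.33 and 18.3 TPM in CS/CS and 9833 to 20080.5 (median 12749.8) TPM in the heterografts. The 3 sets did not overlap. CHI was higher in the heterografts than in CS and CS/CS together (log2 fold change 4.79, SE 1.04, adjusted p = 0.000819) and lower in CS/CS than in CS (log2 fold change -6.04, SE 0.55, adjusted p = 0.00145). By DAF105 its means lay between 8773 TPM in CS/110R and 12572 TPM in CS, with CS/CS at 11932 ± 635 TPM (SD, n = 3).

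LDOX (VIT_18s0001g03430) bears the study's name for the dioxygenase near the end of the pathway, and the name was not checked here. By DAF75 it had made less of its rise in CS/110R and CS/SO4 than in CS/101-14. At DAF75 the CS libraries measured 1.81, 2.48 and 4.05 TPM and those of CS/CS 1.64, 1.13 and 2.35 TPM. The heterograft libraries held 42.4, 47.7 and 18.5 TPM for CS/101-14, 14.9, 13.6 and 18.1 for CS/110R and 10.9, 12.02 and 16.2 for CS/SO4. All heterograft libraries lay above the other 6 (log2 fold change 3.44, SE 0.41, adjusted p = 2.76e-06), but the share of the rise reached was 0.78 for CS/101-14, 0.38 for CS/110R and 0.22 for CS/SO4. At DAF105 LDOX stood at 4.61, 14.9 and 15.8 TPM in CS/CS, below the 49.6 to 166 TPM of the other 12 libraries. The 4CL-like gene 4CLL5 (VIT_16s0050g00390) measured 22.1 to 35.7 (median 28.3) TPM in the heterografts at DAF75 and 3.08 to 12.8 (median 4.76) TPM in CS and CS/CS (log2 fold change 2.40, SE 0.29, adjusted p = 3.31e-06). In CS, 4CLL5 was lower at DAF75 than at DAF45 (14.0, 27.8 and 15.8 TPM at DAF45, 5.54, 7.80 and 12.8 TPM at DAF75) and at DAF105 reached 63.3 ± 1.79 TPM.

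The late end was held by 6 members under 0.5 of their rise in all 3 heterografts, described here after their values were seen. VIT_03s0063g01330 measured 4.80, 3.94 and 4.74 TPM for CS/101-14, 4.59, 1.09 and 1.38 for CS/110R and 1.53, 1.64 and 2.67 for CS/SO4 at DAF75. At DAF105 it stood at 71.1, 113 and 159 TPM in CS, 1.59, 5.38 and 13.8 in CS/CS and means of 48.8 to 68.4 TPM in the heterografts, so that every CS/CS library lay below every CS library. VIT_01s0011g03670 reached means of 11.1 to 28.9 TPM at DAF75 and 145 to 235 TPM at DAF105 in the heterografts. VIT_05s0051g00680, the last member inside the limit, was uneven among graft types at DAF105, with means of 8.56 TPM in CS, 12.04 in CS/CS, 67.7 for CS/101-14, 107 for CS/110R and 322 for CS/SO4. VIT_19s0090g01380, VIT_14s0066g01710 and VIT_13s0067g00890 were the other late members. Of these 6, all but VIT_13s0067g00890 were nonetheless called higher in the heterografts than in CS and CS/CS at DAF75.

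By the study's names, which were not checked here, 8 genes of the primer list were counted with the pathway from phenylalanine to anthocyanins. Of these 4CLL2 and 4CLL5 were counted only for their likeness to 4CL. Of these CHI, LDOX and 4CLL5 are members. All 8 were tested in the heterografts against CS and CS/CS at DAF75, and 4 were higher and 2 lower, with a median log2 fold change of 0.73. Besides the members, F3H, flavanone 3-hydroxylase, was higher (log2 fold change 1.94, adjusted p = 5.86e-07). CHS, the study's name for chalcone synthase, was lower (-3.16, adjusted p = 0.00905), but this rested on CS/CS. Its mean there was 40.6 TPM at DAF75 against 2.08 TPM in CS and 1.73 to 2.46 TPM in the heterografts. CS/CS against CS was itself not called for CHS (4.25, adjusted p = 0.0506). 4CLL2 was lower (-1.97, adjusted p = 1.15e-09), with means of 34.4 to 38.1 TPM in the heterografts against 137.4 TPM in CS and 178.1 TPM in CS/CS. 4CL1 (-1.26, adjusted p = 0.0886) and PAL1, phenylalanine ammonia-lyase (-0.49, adjusted p = 0.659), were not called. Scores were above 0 in 5 of the 8 and above 1 in 4. CHI stands under cell wall organization or biogenesis in the study's term list. Without it, 3 of 7 were higher and 2 lower, with a median of -0.49, and scores were above 0 in 4 and above 1 in 3. Of the other 11 genes on the primer list, 4 were higher and 6 lower at DAF75, and the only member was the ripening-related gene. The study chose the list for PCR on the same experiment, so its direction is not independent evidence, and the same comparison gave 11.2% of all transcripts higher and 17.9% lower.

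The study's list of gene ontology terms for transcripts changed at DAF75, of which a shortened copy was at hand, was used as annotation only, because it was chosen on these libraries. It placed 12 of the 200 members in 4 terms of its upregulated part and 0 in its downregulated part, and 185 members had neither a name nor a term. Cell wall organization or biogenesis held 6 members and glycosyl transfer 6, with VIT_06s0061g00550 and VIT_02s0012g02220 in both. VIT_06s0061g00550 went from a mean of 1.67 TPM at DAF45 to 3.17 at DAF75 and 584 TPM at DAF105 in CS. Its means at DAF75 were 0.199 TPM in CS/CS and 316, 465 and 331 TPM in CS/101-14, CS/110R and CS/SO4 (log2 fold change 7.96, SE 0.73, adjusted p = 1.78e-07). VIT_02s0012g02220 stood at 0.924 ± 0.304 TPM in CS at DAF75 and 31.3 ± 3.75 TPM in CS/101-14 (SD, n = 3; heterografts over CS and CS/CS 4.85 on the log2 scale, SE 0.18, adjusted p = 4.61e-11). Phosphoenolpyruvate carboxykinase, which turns oxaloacetate into phosphoenolpyruvate, was the term of VIT_00s2840g00010. This transcript was abundant at every stage, with 544, 475 and 641 TPM in CS at DAF45, 436, 561 and 466 at DAF75 and 2068, 2724 and 2194 at DAF105. In CS/101-14 it had reached 1735, 1881 and 1786 TPM by DAF75 (heterografts over CS and CS/CS 1.87, SE 0.09, adjusted p = 2.48e-10).

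The other members under glycosyl transfer were of modest level. VIT_18s0041g00740, VIT_12s0059g02520 and VIT_04s0008g05620 had higher means at DAF75 than at DAF105 in each heterograft. In CS/SO4 they stood at 14.8, 13.4 and 22.0 TPM, 14.2, 17.0 and 11.8 TPM and 36.6, 40.1 and 38.5 TPM at DAF75. In CS/CS at that stage they stood at 0.252, 0.0859 and 0.543 TPM, 0.618, 0.375 and 0.931 TPM and 0, 0.0981 and 1.83 TPM. VIT_04s0023g01290 followed a slower course, with means of 2.44 TPM at DAF75 and 14.9 TPM at DAF105 in CS/110R. Of the cell wall members, VIT_05s0049g00010 had about the same mean at DAF75 and DAF105 in each heterograft (25.7 and 25.7 TPM in CS/110R), against 2.93 ± 0.586 TPM at DAF75 in CS (SD, n = 3). VIT_19s0093g00190, under coenzyme metabolic process, stood at 3.50, 5.55 and 4.04 TPM in CS, 0.181, 0 and 0.723 in CS/CS and 23.3, 23.5 and 23.4 in CS/101-14 at DAF75.

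The highest score was that of VIT_05s0049g00760, an unnamed transcript that was nearly silent before ripening. At DAF45 it measured 0.465 to 5.29 (median 1.48) TPM over the 15 libraries and at DAF105 1857 to 8996 (median 6668) TPM. At DAF75 it stood at 0.623, 1.97 and 4.41 TPM in CS and 2.76, 1.98 and 1.49 in CS/CS, against 4609, 5778 and 3819.8 for CS/101-14, 1960.2, 1919.8 and 2245 for CS/110R and 3019, 2702 and 2467 for CS/SO4. Heterograft libraries were all far above the others (log2 fold change 10.65, SE 0.51, adjusted p = 3.12e-10), and CS/101-14 was higher than CS/110R (log2 fold change 1.14, SE 0.15, adjusted p = 0.00661). VIT_15s0021g02700, ranked 5 by score, had the same course except at the end. At DAF75 it measured 528 to 1406 (median 1014) TPM in the heterografts and 0.342 to 0.959 (median 0.567) TPM in the other libraries (log2 fold change 10.73, SE 0.36, adjusted p = 2.63e-11). At DAF105 CS/CS held 51.0, 214 and 226 TPM, while the means of the other graft types were 1364 to 1517 TPM.

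VIT_04s0079g00690, ranked 2 by score, differed between CS/SO4 and the other heterografts. It measured 1133, 1244 and 2026 TPM for CS/101-14, 2717, 2426 and 2223 for CS/110R and 487, 667 and 479.7 for CS/SO4 at DAF75, with at most 0.621 TPM in CS and CS/CS. CS/110R was higher than CS/SO4 (log2 fold change 2.26, SE 0.17, adjusted p = 0.00274), and so was CS/101-14 (log2 fold change 1.43, SE 0.24, adjusted p = 0.0183). CS/101-14 was not called against CS/110R (log2 fold change -0.82, SE 0.21, adjusted p = 0.0636). Single libraries decided both comparisons of CS/101-14: the call against CS/SO4 was lost without CS/SO4 replicate 1 (1.38, adjusted p = 0.0609), and CS/101-14 was called below CS/110R without CS/101-14 replicate 3 (-1.12, adjusted p = 0.0111). In CS/110R the mean then went from 2455 TPM at DAF75 to 1026 TPM at DAF105. VIT_19s0090g01370, ranked 3 by score, had risen less by DAF75, with 69.3 to 617 (median 270.3) TPM in the heterografts and 0.593 to 6.76 (median 1.28) TPM in the others (log2 fold change 7.15, SE 0.66, adjusted p = 1.79e-07). Its mean at DAF105 was 1089.8 ± 534 TPM in CS/CS, against 6333 ± 1857 TPM in CS (SD, n = 3).

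Among the most abundant members, VIT_19s0090g01350 had the highest mean at DAF105 (48729 TPM). In CS it measured 2792, 2435 and 3586 TPM at DAF45, 2729, 6518 and 3808 at DAF75 and 38611, 58561 and 67167 at DAF105. In CS/CS the values were 6.87, 19.7 and 29.0 TPM, 139, 109 and 296 TPM and 9404, 9904 and 16912 TPM, lower than in CS at each stage without overlap. At DAF75, the stage tested, the log2 fold change of CS/CS over CS was -4.66 (SE 0.51, adjusted p = 0.00184). The heterografts stood at 11339.9 to 49567 (median 39098) TPM at DAF75 (log2 fold change 3.95, SE 0.88, adjusted p = 0.000956). Its neighbour VIT_19s0090g01340 was lower in CS/CS at DAF45 (34.2, 577 and 604 TPM against 1202, 1404 and 1904 TPM in CS) and was not called at DAF75 (log2 fold change 0.60, SE 0.31, adjusted p = 0.165). In CS/CS its DAF105 values were 42042, 32338 and 31135 TPM against 25090.5, 14334 and 26393 TPM in CS and 8647, 7084 and 5600.2 TPM in CS/SO4.

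VIT_05s0049g00520, which ranked 4 by score, and VIT_08s0056g01600 differed in where they started. VIT_05s0049g00520 measured 6.33 to 441 (median 70.6) TPM at DAF45 and 23619.9 to 49144 (median 37786) TPM at DAF105. At DAF75 it stood at 16171 to 26929.6 (median 23486) TPM in the heterografts and at 36.4 to 167 (median 74.7) TPM in CS and CS/CS (log2 fold change 8.06, SE 0.43, adjusted p = 8.02e-10). VIT_08s0056g01600 was abundant already at DAF45, at 5725 to 7703 (median 6789) TPM, and its 6 CS and CS/CS libraries at DAF75 were still at 5296 to 6755 (median 6070.4) TPM when the heterografts were at 24928 to 34404 (median 28923) TPM (log2 fold change 2.46, SE 0.12, adjusted p = 2.74e-10). VIT_01s0010g02030 and VIT_05s0094g00340, the other members among the 6 most abundant, were higher in the heterografts by 4.80 (SE 0.46, adjusted p = 2.75e-07) and 6.94 (SE 0.85, adjusted p = 3.38e-06) on the log2 scale.

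**Figure D4:**
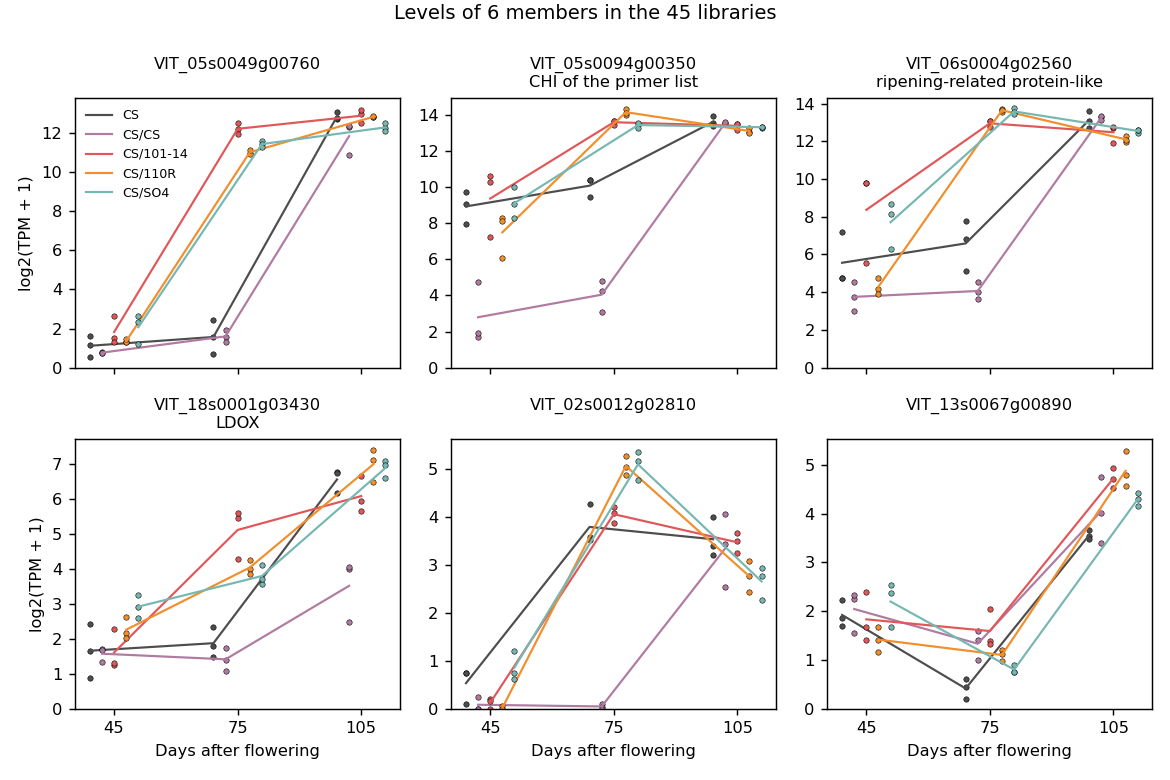
Level in log2(TPM + 1) (y axis) at DAF45, DAF75 and DAF105 (x axis) of 6 members, 1 panel each. Points are libraries and lines join the means of 3 replicates per graft type. The graft types are set side by side at each stage so that points do not hide each other. In the first 4 panels all CS and CS/CS libraries lie below the heterograft libraries at DAF75. In VIT_02s0012g02810 CS stands near CS/101-14 (11.1, 18.3 and 10.5 TPM), and in VIT_13s0067g00890 all graft types are low, with means up to 2.09 TPM.

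Some members were not seen at all before their rise. VIT_02s0012g00490 had 0 counts in all 15 libraries at DAF45 and in the 6 CS and CS/CS libraries at DAF75, and measured 44.1, 62.6 and 44.1 TPM for CS/101-14, 60.2, 40.3 and 56.9 for CS/110R and 70.6, 75.4 and 67.7 for CS/SO4 at DAF75. Set against the 3 counts that a total of 0 over the 6 libraries allows, the heterografts were at least 574-fold higher. VIT_06s0009g03120 likewise had 0 counts in CS and CS/CS at DAF75 and stood at 9.78 to 21.9 (median 16.3) TPM in the heterografts, at least 1051-fold higher by the same floor. These bounds cover counting error only. VIT_00s0225g00230 had 11 counts in the 6 CS and CS/CS libraries together and 123 to 274 (median 154) TPM in the heterografts at DAF75. In CS/110R and CS/SO4 it then stood at 42.3, 16.5 and 44.4 TPM and 48.0, 46.2 and 47.1 TPM at DAF105, below every value of those grafts at DAF75. VIT_16s0039g02230, ranked 6 by score, had 4 counts in CS and CS/CS at DAF75 and 36.5 to 169 (median 91.3) TPM in the heterografts, and for both genes the fitted change is left out, since with so few counts it depends on the prior count.

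Only 5 of the 195 members tested were not called higher in the heterografts. VIT_13s0067g00890 was still low at DAF75 in every graft type. Its means were 0.343 TPM at DAF75 in CS, 1.55 in CS/CS, 2.09 for CS/101-14, 1.15 for CS/110R and 0.747 TPM for CS/SO4, and the heterografts overlapped with CS and CS/CS (log2 fold change 0.65, SE 0.49, adjusted p = 0.249). VIT_14s0060g01010 missed the fold limit with 71.2 to 94.5 (median 80.7) TPM in the heterografts and 33.9 to 66.0 (median 44.5) TPM in the other libraries (log2 fold change 0.93, SE 0.15, adjusted p = 6.90e-05). The other 3, VIT_05s0077g01570 (2.07, adjusted p = 0.0550), VIT_05s0077g01150 (2.15, adjusted p = 0.0583) and VIT_14s0060g02300 (1.42, adjusted p = 0.130), had log2 fold changes above 1 but missed the limit on the adjusted p. Just past the limit stood VIT_02s0033g01400 (log2 fold change 1.0044, SE 0.36, adjusted p = 0.0232), with 11.2, 8.17 and 9.01 TPM in CS and 55.4, 35.4 and 21.2 in CS/CS, and VIT_18s0001g01060 (log2 fold change 1.01, SE 0.23, adjusted p = 0.00125). The 5 members with too few counts for a test were VIT_11s0052g00580, VIT_16s0039g02280, VIT_14s0006g03050, VIT_08s0040g01840 and VIT_13s0019g04290.

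Self-grafted and graft-free vines were compared at DAF75 to see where the members stood in CS/CS, with 3 libraries each. Of the 137 members with enough counts, 60 were lower in CS/CS than in CS and 11 were higher, against 6.76% and 9.10% of all 18001 transcripts tested. The median log2 fold change was -0.99 over these members and 0.00 over all transcripts. Members with at least 10 counts in each CS library numbered 122, and those with as many in each CS/CS library 112. Some of the 137 thus passed the count filter through one side only and had to differ. The counts of lower and higher members were not repeated without them. Leaving out CS replicate 2 brought the count of 71 down to 46, and leaving out CS replicate 3 brought it to 50. Either way 39 members were called lower, whereas without CS replicate 1 60 were. Over all transcripts the calls went from 1638 higher and 1217 lower to 1206 and 783 without replicate 2. Without replicate 3 they were 1382 and 912. Of the 163 members higher than CS in all 3 heterografts, 117 had enough counts for CS/CS against CS, where 48 were lower and 10 higher. Of all transcripts higher than CS in all 3 heterografts and tested there, 15.1% were lower and 16.6% higher. CHI was one of the 3 members with the lowest fold change. VIT_01s0026g02620 was another, with 117, 149 and 166 TPM in CS and 1.95, 1.88 and 2.51 TPM in CS/CS (log2 fold change -6.11, SE 0.20, adjusted p = 0.000186) and 612 to 1317 (median 915.3) TPM in the heterografts. Its level in CS/CS at DAF105 was 463 ± 108 TPM, next to 455 ± 124 TPM in CS (SD, n = 3). VIT_02s0012g02810 had 11.1, 18.3 and 10.5 TPM in CS, its full level of DAF105 (15.1, 9.50 and 8.32 TPM), and 3 counts in the CS/CS libraries together, a ratio of 377 of CS over CS/CS with a counting interval of 129 to 1829 (95%).

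The 3 members with the highest change in CS/CS were of low level in CS. VIT_13s0074g00570 measured 7.14, 4.24 and 1.38 TPM in CS/CS and 0.121, 0.194 and 0.156 TPM in CS (log2 fold change 4.71, SE 0.71, adjusted p = 0.00386). VIT_05s0077g01150 had 1 count in the CS libraries, and the ratio of CS/CS over CS was 96.5 with a counting interval of 16.9 to 3848 (95%). At DAF105 it measured 36.3, 102 and 219 TPM in CS/CS and 5.52, 2.13 and 1.76 TPM in CS. VIT_14s0060g02300 varied widely within CS/CS, at 85.0, 16.9 and 1.11 TPM against 0.256, 2.21 and 2.55 TPM in CS (log2 fold change 4.27, SE 1.42, adjusted p = 0.0483), and CS/CS overlapped with CS. At DAF105, a stage the rule used, CS/CS had the lowest mean of the 5 graft types for 119 members and the highest for 39, and CS the lowest for 16 and the highest for 31.

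**Figure D5:**
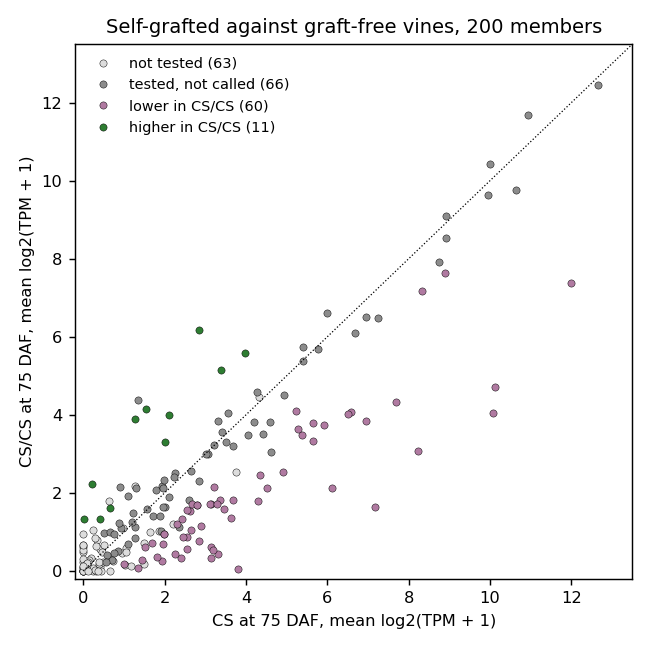
Mean log2(TPM + 1) of each of the 200 members at DAF75 in CS (x axis) and CS/CS (y axis), with the dotted line where both are equal. Members called lower in CS/CS (60) lie below the line, those called higher (11) above it, and 63 members were not tested.

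Most members were not called between heterografts at DAF75, but a larger share of the members than of all transcripts was called. CS/101-14 was higher than CS/110R in 10 of 194 members tested and lower in 10 (0.628% and 1.12% of all transcripts tested). CS/101-14 was higher than CS/SO4 in 17 of 193 and lower in 6 (0.805% and 0.879%). CS/110R was higher than CS/SO4 in 13 of 194 and lower in 5 (0.736% and 0.485%). The median log2 fold change over the members was 0.14, 0.20 and 0.11 in these comparisons. In at least 1 of them 45 members were called, and the share of all transcripts so called was not counted. The counts fell when single libraries were left out, which also leaves fewer libraries to test. Without CS/101-14 replicate 1 the 20 members of the first comparison became 8 and the 23 of the second became 7, and without CS/110R replicate 3 the 18 of the third became 4. Calls over all transcripts fell too. Those higher and lower went from 111 and 198 to 43 and 122 in the first comparison. In the second they went from 142 and 155 to 22 and 72, and in the third from 129 and 85 to 33 and 20. Counts lower by over 1.5 times also came without CS/110R replicate 1 (13) or replicate 3 (12) in the first comparison, without CS/101-14 replicate 2 (11) or CS/SO4 replicate 1 (15) in the second, and without CS/110R replicate 1 or 2 (5 each) or CS/SO4 replicate 3 (11) in the third.

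VIT_16s0039g02370 was set apart in CS/110R, where it measured 10.3, 15.2 and 15.9 TPM against 2.01, 0.943 and 0.492 for CS/101-14 and 0.668, 0.944 and 2.02 in CS/SO4. This transcript rested on few reads, with 8, 86 and 7 counts in CS/101-14, CS/110R and CS/SO4. Both differences were called (CS/101-14 against CS/110R log2 fold change -3.55, SE 0.48, adjusted p = 0.00715 and CS/110R against CS/SO4 log2 fold change 3.64, SE 0.48, adjusted p = 0.0134). VIT_05s0077g01150 was also higher in CS/110R than in CS/101-14, with 7.74, 4.94 and 7.45 and 0.867, 0.139 and 1.71 TPM (log2 fold change -2.97, SE 0.57, adjusted p = 0.023). CS/101-14 was above CS/SO4 for VIT_11s0016g04920, at 164, 303 and 113 against 19.1, 32.1 and 13.6 TPM (log2 fold change 3.14, SE 0.43, adjusted p = 0.0104), and for VIT_01s0026g00740, at 32.9, 48.3 and 17.8 against 8.12, 2.97 and 7.01 TPM (log2 fold change 2.47, SE 0.45, adjusted p = 0.0242). VIT_02s0234g00110 was low in level and higher in CS/110R than in CS/SO4, at 3.93, 8.99 and 4.53 and 1.01, 1.48 and 0.809 TPM (log2 fold change 2.45, SE 0.40, adjusted p = 0.0237). None of these pairs of groups overlapped.

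Some members had neighbouring identifiers, which number the loci of a scaffold in order. With a step of at most 100 between consecutive numbers, which takes in up to 10 loci at the usual spacing, 53 of the 200 members fell into 22 runs, and 21 of them into 6 runs of 3 or more. The next 200 transcripts by score had 34 in 17 runs and no run of 3. The rate among all transcripts over the TPM minimum was not counted. The chromosomes with most members in the identifier were chromosome 2 with 24 (12%, against 4.16% of the transcripts over the TPM minimum) and chromosome 5 with 19 (9.5% against 5.73%). Chromosome 16 held 6% against 3.43%, and chromosome 7 held 2% against 5.93%. Near-identical neighbours can share reads, and how the counting treated such reads is not given in the sources used here, so levels within a run are uncertain.

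The longest run was VIT_19s0090g01340 to VIT_19s0090g01380, in which all 5 listed transcripts were members, with scores of 3.11 to 9.48. Their mean level at DAF105 was 50.8 to 48729 TPM. In VIT_05s0094g00330 to VIT_05s0094g00350 all 3 listed transcripts were members, CHI among them, with mean levels of 167.6 to 14686 TPM at DAF105. A run of 4 members among 8 listed transcripts lay at VIT_02s0033g00380, VIT_02s0033g00390, VIT_02s0033g00410 and VIT_02s0033g00450, which were chosen for description after their values were seen. VIT_02s0033g00380 was listed at 0 TPM in all 6 CS and CS/CS libraries at DAF75. VIT_02s0033g00390 measured 0, 0 and 0 TPM in CS and 0.269, 0.165 and 0.0969 TPM in CS/CS at DAF75, and 77.2, 87.3 and 120.4 for CS/101-14, 123, 104 and 103 for CS/110R and 88.2, 92.8 and 85.6 TPM for CS/SO4. VIT_02s0033g00410 stood at 82.6, 61.6 and 103 TPM in CS/101-14 at DAF75 and 52.5, 32.2 and 38.7 TPM at DAF105, and in CS/SO4 at 102, 106 and 98.8 and 14.95, 11.05 and 20.7 TPM. In all 4 the mean at DAF75 was above that at DAF105 in CS/110R and CS/SO4. All 4 were called higher in the heterografts than in CS and CS/CS at DAF75, and at DAF105 CS/CS held more of VIT_02s0033g00450 (269.7, 203 and 204 TPM) than any other graft type, CS/110R the least (14.3, 16.8 and 14.99 TPM).

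As features that the rule did not use, length and replicate spread were described. Transcript length relative to other transcripts was read from the ratio of counts to TPM, and its median was 0.650 for the members, 0.809 for the next 200 by score and 0.919 for all transcripts over the TPM minimum. The SD between replicates at DAF75 in log2(TPM + 1) had a median of 0.275 over the members in CS, 0.311 in CS/CS, 0.190 for CS/101-14, 0.202 for CS/110R and 0.248 for CS/SO4. Over all transcripts above the minimum it was 0.105 to 0.175. Members varied more between replicates than most transcripts at DAF75, and most in CS/CS and CS, where their levels were lowest.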

How the data were processed

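RNA of berry skins was sequenced in 45 libraries, 5 graft types at 3 stages with 3 replicates. The authors used fastp to trim reads, HISAT2 and the 12X grape genome to align them, StringTie to assemble and HTSeq to count, in versions not given in the sources used here. The authors deposited a table of expected counts (whole numbers for most, with some fractions, whose origin is not given in the sources used here) and a table of TPM values for the same 29958 transcripts. Totals were 16387269 to 20765329 counts per library. The deposited expected counts were rounded to whole numbers for the tests, and the deposited TPM gave the score, the shares and the levels.

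Members and lists were chosen with earlier results of these data known. At DAF75, 9 comparisons were fitted in edgeR 4.0.16 (R 4.3.3) with TMM scaling and the quasi-likelihood test, on transcripts with at least 10 counts in 3 or more of the libraries compared. Called transcripts had a log2 fold change beyond 1 in either direction and, adjusted by Benjamini-Hochberg over all transcripts tested, a p of 0.05 or less. DESeq2 1.42.0, limma 3.58.1, other scalings, filters and pseudocounts, a replicate block and leaving out each library were alternatives. Intervals and floors cover counting error only. The fits were tested on simulated counts with a single dispersion and no differences between graft types on one side. These settings are simpler than the data, so no result here rests on that test.

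Members named in the text were the 6 highest by score, the 6 most abundant at DAF105, those on the primer list, those with the most specific terms, the 6 largest differences at DAF75 with no overlap and a heterograft mean of at least 10 TPM, the 4 smallest, the 3 highest and 3 lowest called in CS/CS against CS, the 2 largest in each pair of heterografts and the 3 on each side of the score limit. Other identifiers were named after their values were seen. Graphs were drawn with matplotlib 3.10.9.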

Additional observations from a re-analysis of the deposited data

Results flagged for a closer look

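At DAF75, CS/CS and the heterografts departed from CS in opposite directions for 48 members, which were called lower than CS in CS/CS and higher than CS in each of the 3 heterografts. Of the 117 members higher in all 3 heterografts and tested in CS/CS against CS, these are 48, and of all such transcripts 15.1% were lower in CS/CS. Members that passed the count filter only through CS had to be lower in CS/CS, and the 48 were not counted again without them. That the heterografts lie above CS/CS in these 48 follows from how they were picked, and the values below are a description. Among the members named above these were VIT_19s0090g01350 (log2 fold change of the heterografts over CS/CS 7.65), VIT_05s0094g00340 (9.44), the ripening-related protein-like gene VIT_06s0004g02560 (9.59), CHI (VIT_05s0094g00350; 9.84), 4CLL5 (VIT_16s0050g00390; 3.19) and VIT_01s0026g02620 (9.03). The label CHI was not checked, and the study's term list places that identifier under cell wall organization or biogenesis. The CS libraries stand in each of the comparisons with CS, so those comparisons are not separate evidence. Groups of 3 libraries were not checked here for single outlying values, and the counts without each library stand in the next part.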

How the results depend on the processing

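The replicate numbers gave no sign of pairing at DAF75, since the deviations of same-numbered libraries from their group means correlated at -0.30 to 0.18 and 5 of 30 pairs passed 0.1. With the number as a block, 190 members were called in the heterografts against CS and CS/CS, 187 against CS/CS alone, 185, 180 and 171 in CS/101-14, CS/110R and CS/SO4 against CS, and 69 in CS/CS against CS. Between heterografts the block gave 17, 13 and 13 members, the value for CS/101-14 against CS/SO4 having been 23.

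The median share of the rise moved to 0.0705 in CS/CS and 0.820 in CS/SO4 with log2(TPM + 0.1), to 0.779 for CS/110R and 0.777 for CS/SO4 with log2(TPM + 5), to 0.0624 in CS/CS with a minimum of 20 TPM, and to 0.870, 0.789 and 0.751 in CS/101-14, CS/110R and CS/SO4 with log2(CPM + 1). Leaving out replicates gave 0.0554 to 0.138 in CS, 0.0183 to 0.0477 in CS/CS, 0.886 to 0.942 in CS/101-14, 0.778 to 0.835 in CS/110R and 0.771 to 0.824 in CS/SO4. Of the 200 members, 141 to 194 were also chosen under these scales and minimums and 179 to 182 without one replicate number. One fit of all 45 libraries called 7 members between CS/101-14 and CS/110R and 14 between CS/101-14 and CS/SO4, and limma called 10 between CS/110R and CS/SO4. Without single libraries the counts were 46 to 74 in CS/CS against CS, 8 to 22 between CS/101-14 and CS/110R, 7 to 19 between CS/101-14 and CS/SO4 and 4 to 19 between CS/110R and CS/SO4. The cause was not tested.

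Treating the graft types as separate groups, an alternative chosen after seeing the data, called 193 members against CS and CS/CS and 188 against CS/CS. Members chosen without replicate 1 of CS/101-14 at DAF45 or of CS/CS at DAF105, also an added alternative, had 188 and 191 calls against CS and CS/CS. For the 32 named members tested, 670 of 701 values under the alternatives kept their direction and side of the threshold, 19 lost the call, 12 gained one and 0 changed direction. The 19 belonged to VIT_02s0033g01400, VIT_18s0001g01060 and VIT_02s0012g02810. limma on log2(TPM + 1) put the median of all transcripts at -0.13 to -0.21 in the comparisons of heterografts with CS or CS/CS, against which the members' rises stand. Members with under 10 counts in CS and CS/CS have folds that the depth limits.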
